A study of Homo sapiens with 20 samples.

Results

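Sterol and fatty acid synthesis genes were examined as a group of 31 genes among the 60719 genes of the deposited table, matched by gene name. They are enzymes that build cholesterol, enzymes that build and desaturate fatty acids, the SREBP factors with the proteins that hold SREBP in the endoplasmic reticulum, and a sterol carrier. The list was chosen with the levels of these genes in both lines known, in particular the near loss of CYP51A1 mRNA in JinB8 cells, so the difference between the lines is described here and not tested. All 31 members were found, and all 31 were among the 16327 genes that passed the low-count filter. CYP51A1 passed through its level in WT cells, since its counts in JinB8 were near 0.

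RNA was sequenced from WT Jurkat cells, a human T lymphoblast line, and from JinB8, a CD47-deficient somatic mutant of Jurkat, with 10 libraries per line. Each line had 1 untreated (UT) library at 1 h and, at each of 1, 3 and 6 h, 1 library on plates coated with anti-CD3 and anti-CD28 (CD3+CD28), 1 on such plates with thrombospondin-1 (CD3+CD28+TSP1) and 1 with TSP1 alone. TSP1, a secreted ligand of CD47, was given at 1 µg/mL. All groups were kept in serum-free medium with insulin, transferrin, selenite, hydrocortisone and albumin, and JinB8 is a single mutant line, so the loss of CD47 cannot be told apart from other differences between the lines.

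Cells make cholesterol from acetyl-CoA by way of mevalonate, farnesyl pyrophosphate, squalene and lanosterol. When endoplasmic reticulum sterol falls, SCAP escorts the SREBP precursors to the Golgi, where they are cut to release transcription factors that raise the genes of sterol and fatty acid synthesis. INSIG proteins keep SCAP in the endoplasmic reticulum when sterol is plentiful. Proliferating lymphoblasts use both pathways to build membranes.

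Library totals ran from 20483642 to 31737616 counts in WT and from 16107921 to 28525524 in JinB8. Levels are given as CPM, the counts of a gene relative to the total of its library, after scaling of the libraries by the TMM method, and 3 counts, taken as the detection limit, corresponded to 0.0979 to 0.156 CPM. CD47 itself was at 317 ± 42.1 CPM in WT and 147 ± 12.6 in JinB8 (SD, n = 10 each), with no overlap. Its mRNA thus remained in every JinB8 library, at 124 CPM or more. The study reports from flow cytometry that the mutant has no CD47 at the cell surface. All 10 T cell markers checked reached 1 CPM in every library, although TRAC was lower in JinB8 (28.7 CPM or less, against 122 or more in WT) and CD2 higher (79.5 CPM or more, against 50.8 or less). The hepatocyte markers ALB, APOA1 and TTR summed to at most 0.363 CPM, with TTR at 0 counts in all libraries, and none of the 4 myeloid and 4 epithelial markers reached 1 CPM in every library. Of the B cell markers, CD79A was at 33.9 CPM or more in WT and 9.97 or less in JinB8, and MS4A1 was at or below 0.163 in every library. The 4 fibroblast markers summed to 1.89 to 6.69 CPM and 7.70 to 12.3. The part of these differences in the results was not tested. The closest pair of libraries of a line still differed by more than sampling noise (chi-square per degree of freedom of 4.68 over 90 pairs), so no library was a copy of another. The JinB8 library with CD3+CD28+TSP1 at 3 h stood apart. It had the lowest total (16107921 counts against 20483642 or more in the other 19) and a TMM factor of 1.20 against 0.886 to 1.07 in the others. Its median correlation with its line was 0.968, against 0.971 or more in the other 19. Mitochondrial genes held 0.663% of its counts, against 0.446% and 0.501% in the other JinB8 libraries of 3 h. For 20 members this library lay below both other JinB8 libraries of 3 h, for 10 above both, and for 1 between them. Results that rest on it are therefore given also without it, and its part in them was not tested in any other way. In WT, mitochondrial genes held 0.584 to 0.643% of counts at 1 h and 0.380 to 0.423% at 6 h. In JinB8 the shares were 0.498 to 0.603% and 0.339 to 0.510%. The part of this share in the changes over time was not tested.

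The stretches printed next show the sequence before the start site of 4 members that were lower in all JinB8 libraries than in any WT library, together with the letters bound by factors of this pathway. TCACNCCAC is the core of the sterol regulatory element bound by SREBP, and CCAAT is the box bound by NF-Y, its usual partner. Both were searched on both strands in the 250 bases before the start in RefSeq promoters of GRCh38.p14, which hold 27 of the 31 members with 37 promoters. The motifs do not overlap in the 4 stretches printed. CCAATTGG, found before NSDHL and before another start of IDI1, was counted as a match on each strand. Capitals mark a match, and ATTGG is CCAAT read on the other strand. Each runs 5′ to 3′ on the strand of the gene, and any part covered by an exon of a protein-coding transcript was left out.
SREBF2 (chr22:41832855-41833104, + strand): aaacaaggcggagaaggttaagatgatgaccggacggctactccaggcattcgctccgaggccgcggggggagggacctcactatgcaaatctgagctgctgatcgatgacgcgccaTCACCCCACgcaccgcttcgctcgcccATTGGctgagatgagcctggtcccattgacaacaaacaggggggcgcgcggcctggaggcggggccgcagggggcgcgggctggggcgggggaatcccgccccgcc
IDI1 (chr10:1049120-1049369, - strand): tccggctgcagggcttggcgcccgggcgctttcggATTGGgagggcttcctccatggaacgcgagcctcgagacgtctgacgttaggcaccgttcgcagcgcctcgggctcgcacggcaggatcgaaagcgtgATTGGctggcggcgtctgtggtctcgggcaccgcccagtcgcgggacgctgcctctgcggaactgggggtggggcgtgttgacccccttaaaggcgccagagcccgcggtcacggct
EBP (chrX:48521558-48521805, + strand): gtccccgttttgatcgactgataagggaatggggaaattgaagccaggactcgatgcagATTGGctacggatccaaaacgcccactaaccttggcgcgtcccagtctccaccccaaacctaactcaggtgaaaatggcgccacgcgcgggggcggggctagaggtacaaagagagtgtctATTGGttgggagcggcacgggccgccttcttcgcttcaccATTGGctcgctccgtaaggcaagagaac
STARD4 (chr5:111512591-111512785, - strand): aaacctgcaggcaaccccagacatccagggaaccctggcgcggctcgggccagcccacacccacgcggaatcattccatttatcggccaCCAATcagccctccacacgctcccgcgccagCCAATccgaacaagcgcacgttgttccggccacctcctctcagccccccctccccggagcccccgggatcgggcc

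TCACNCCAC was found in 1 of the 37 member promoters, that of SREBF2 shown above, and in 0.883% of all 35116 promoters. CCAAT was found in 23 of the 37 (62.2%), against 32.01% of all promoters, and 15 of the 37 (40.5%) held it 2 times or more, against 9.53%. These are matches of letters and no evidence of binding. The 250 bases before the RefSeq start of CYP51A1 held neither motif. Only these exact letters were searched, so sites with other letters would be missed and a lack of matches does not show a lack of sites.

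CYP51A1, the lanosterol demethylase that removes the first methyl group after the sterol rings have closed, was nearly absent from JinB8. It lies on chromosome 7 (hg38, 92084987 to 92134803, minus strand). In WT the lowest library had 36.4 CPM, the median was 59.6 and the highest was 82.7. In JinB8 the values were 0.277 (UT), 0.716 (CD3+CD28), 0.601 (CD3+CD28+TSP1) and 0.212 (TSP1) at 1 h. At 3 h they were 0.723, 0 and 0.479 in the order CD3+CD28, CD3+CD28+TSP1 and TSP1, and at 6 h 0.0840, 0.0818 and 0.253. The highest JinB8 library was thus far below the lowest WT library, and 3 of the 10 JinB8 libraries held no more than 3 counts. In such bulk libraries fewer expressing cells and less RNA per cell cannot be told apart. Over all libraries 13213 counts were found in WT and 84 in JinB8, which at equal depth is 0.618% of the WT level (95% exact binomial interval 0.493 to 0.766%) or a 162-fold lower level (131- to 203-fold). The interval covers counting error only.

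The other tested genes around CYP51A1 showed no such loss. Of 12 other tested genes that lie at least in part within 500 kb, none was lower in every JinB8 library than in any WT library, and 4 were higher. Of all tested genes 5.48% were lower and 6.01% higher in this way. Nothing is read from the 2 counts, since they cover only 12 genes. AKAP9, a scaffold protein gene whose exons overlap CYP51A1 exons on the opposite strand, was at 187 CPM in WT and 199 in JinB8. KRIT1 and ANKIB1, upstream of CYP51A1, had fitted log2 fold changes of -0.36 (SE 0.09) and -0.37 (SE 0.06), with overlapping lines. FAM133B and CDK6, a kinase of the cell cycle, were higher in JinB8, with 205 against 74.3 CPM and 2697 against 679 CPM. The same transcript led CYP51A1 in both lines. ENST00000003100, with 10 exons and 3155 bases, of which 0 are shared with AKAP9 exons, took 94.8% of the CYP51A1 counts in WT and 72.7% of the few left in JinB8. Of the 84 JinB8 counts, 16 went to ENST00000450723 and 7.1 to ENST00000422867. The processed pseudogenes of CYP51A1 held at most 12.0 counts over the 10 WT libraries and at most 1 over the 10 JinB8 libraries.

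**Figure D1:**
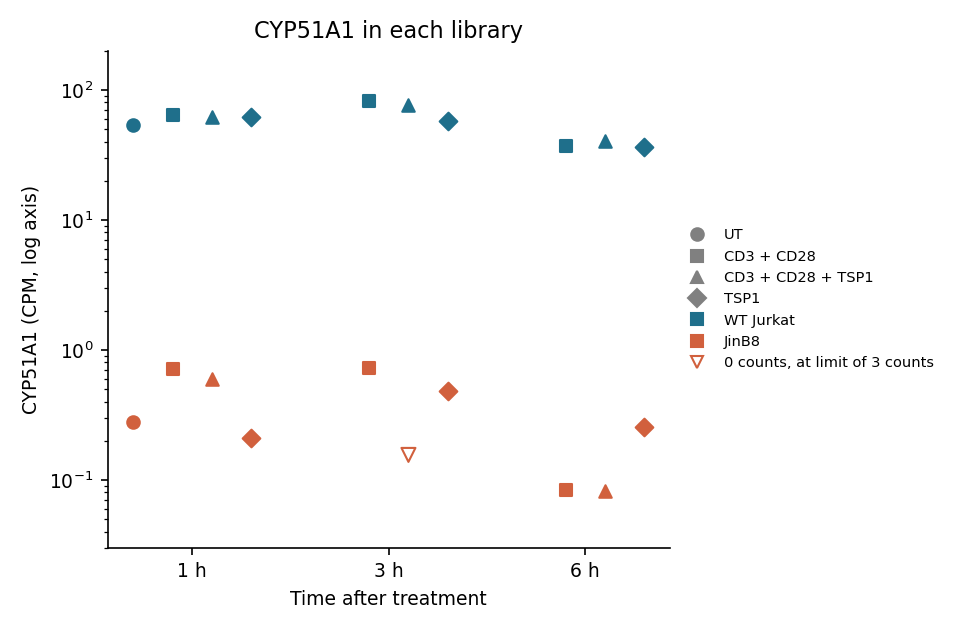
CYP51A1 in CPM on a log axis for each of the 20 libraries by time point. Each symbol is 1 library, its shape gives the treatment and its colour the line; the open triangle is the JinB8 library with 0 counts, drawn at the level of 3 counts. WT libraries sit between 36.4 and 82.7 CPM and JinB8 libraries at or below 0.723.

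**Figure D2:**
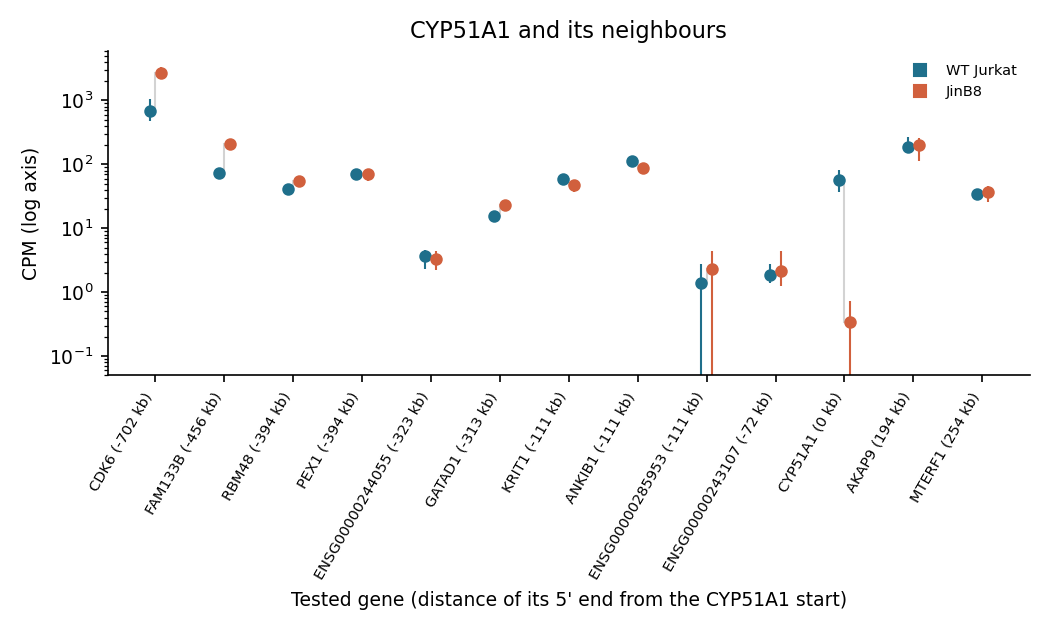
Mean CPM (log axis) of CYP51A1 and the 12 other tested genes within 500 kb, ordered by the distance of their 5′ ends from the CYP51A1 start, where negative distances are upstream; bars run from the lowest to the highest of 10 libraries per line and are cut at the axis. CYP51A1 is the only one of the 13 whose JinB8 libraries all lie below the WT libraries.

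Across the 31 members, 27 had a lower mean in JinB8 and 4 a higher mean. In 12 members every JinB8 library was below every WT library (38.7%, against 5.48% of all tested genes), and in 0 every JinB8 library was above (against 6.01% of all). Since the members were chosen on this contrast, nothing is read from these shares. Libraries matched for treatment and time were lower in JinB8 in 10 of 10 pairs for 20 members, and higher in 10 of 10 for 1, PMVK. No share over all tested genes was taken for these pairs, and nothing is read from these counts either. The median fitted log2 fold change, JinB8 against WT, was -0.61 over the members and -0.01 over all tested genes. By role it was -1.09 for the 7 enzymes from acetyl-CoA to farnesyl pyrophosphate, -0.76 for the 11 from squalene to cholesterol, -0.56 for the 5 SREBP regulators and -0.15 for the 7 fatty acid genes.

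Among the early enzymes, HMGCS1, which condenses acetoacetyl-CoA with acetyl-CoA, had the widest gap. Its lowest, median and highest WT libraries were at 298, 474 and 572 CPM and its JinB8 libraries at 88.5, 117 and 142. The fitted difference was -1.94 on the log2 scale (SE 0.11), with a WT mean 3.85 times that of JinB8. SEs of line differences and SDs with n = 10 measure the spread over treatments and times within a line. They do not measure a spread between independent lines. IDI1, which isomerizes isopentenyl pyrophosphate, ran over 155, 217 and 337 CPM in WT and 64.1, 91.9 and 101 in JinB8 (log2 difference -1.39, SE 0.11). ACAT2, the cytosolic thiolase that opens the pathway, ran over 125, 136 and 178 CPM in WT and 36.4, 60.3 and 70.2 in JinB8 (log2 difference -1.28, SE 0.10). The lines did not overlap in any of these 3 genes. Some ACAT2 exons overlap those of SOD2 and TCP1 on the opposite strand, and the strand setting of the counting is not given in the sources used here. Of the others, MVD, the mevalonate pyrophosphate decarboxylase, was at 40.0 ± 14.2 CPM in WT and 18.8 ± 6.62 in JinB8 (SD, n = 10 each), with overlap. MVK, the mevalonate kinase, was at 22.2 ± 4.81 and 14.7 ± 5.03, and FDPS, the farnesyl pyrophosphate synthase, at 168 ± 25.6 and 110 ± 25.2. PMVK, the phosphomevalonate kinase, went the other way, with 11.8 ± 4.57 CPM in WT and 16.6 ± 6.02 in JinB8. Its ranges overlapped although JinB8 was higher in every matched pair.

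From squalene to cholesterol, the members with no overlap besides CYP51A1 were EBP, SQLE and SC5D. EBP, the sterol isomerase, ran over 59.2, 69.7 and 75.1 CPM in WT and 20.1, 28.6 and 32.02 in JinB8 (log2 difference -1.26, SE 0.08). SQLE, the squalene epoxidase and a rate-limiting step, ran over 135, 174 and 212 CPM in WT and 55.2, 65.3 and 117 in JinB8 (log2 difference -1.17, SE 0.15). SC5D, the lathosterol oxidase, was at 74.7 ± 8.22 and 53.3 ± 2.56 CPM, the smallest gap of the members with no overlap. FDFT1, the squalene synthase, LSS, the cyclase that makes lanosterol, MSMO1, the sterol methyl oxidase that acts after CYP51A1, and DHCR7, which makes cholesterol in the last step, were lower in JinB8 in 10 of 10 matched pairs, with log2 differences from -0.77 to -0.61. TM7SF2, NSDHL and HSD17B7, which act on the sterol after demethylation, differed least, with log2 differences of -0.10, -0.17 and -0.25 and means in JinB8 that were 0.936, 0.887 and 0.841 times those of WT.

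Among the regulators, SREBF2, the SREBP gene that mainly serves sterol synthesis, had no overlap. Its WT libraries ran over 51.5, 62.1 and 81.2 CPM and its JinB8 libraries over 22.7, 27.6 and 38.5, a log2 difference of -1.25 (SE 0.10). The highest JinB8 value is that of the CD3+CD28+TSP1 library at 3 h, and the next highest was 28.9. INSIG1, itself a target of SREBP, was at 482 ± 61.6 CPM in WT and 263 ± 36.3 in JinB8, without overlap. SREBF1, which mainly serves fatty acid synthesis, was at 39.1 ± 18.2 and 26.6 ± 8.60 CPM, INSIG2 at 24.2 ± 5.91 and 20.2 ± 3.53 and SCAP at 50.5 ± 6.79 and 54.7 ± 10.9, all with overlap. STARD4, a cytosolic sterol carrier, ran over 158, 196 and 241 CPM in WT and 65.9, 78.8 and 92.2 in JinB8, with no overlap and a log2 difference of -1.34 (SE 0.08).

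The fatty acid genes split. SCD, which puts the first double bond into stearoyl-CoA, was at 439 ± 52.6 CPM in WT and 254 ± 33.1 in JinB8. FADS1, a desaturase of polyunsaturated fatty acids, ran over 138, 177 and 219 CPM in WT and 75.6, 101 and 109 in JinB8. Neither overlapped. ACLY, which supplies cytosolic acetyl-CoA, was at 226 ± 23.8 and 222 ± 13.4 CPM, and FASN, the fatty acid synthase, at 61.8 ± 17.5 and 63.4 ± 34.3. ACACA, which makes malonyl-CoA, and FADS2, the partner desaturase of FADS1, had means in JinB8 that were 0.835 and 0.900 times those of WT. ELOVL6, an elongase, was at 7.13 ± 1.72 CPM in WT and 8.76 ± 1.41 in JinB8. FADS1 and FADS2 overlap in exons on opposite strands.

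**Figure D3:**
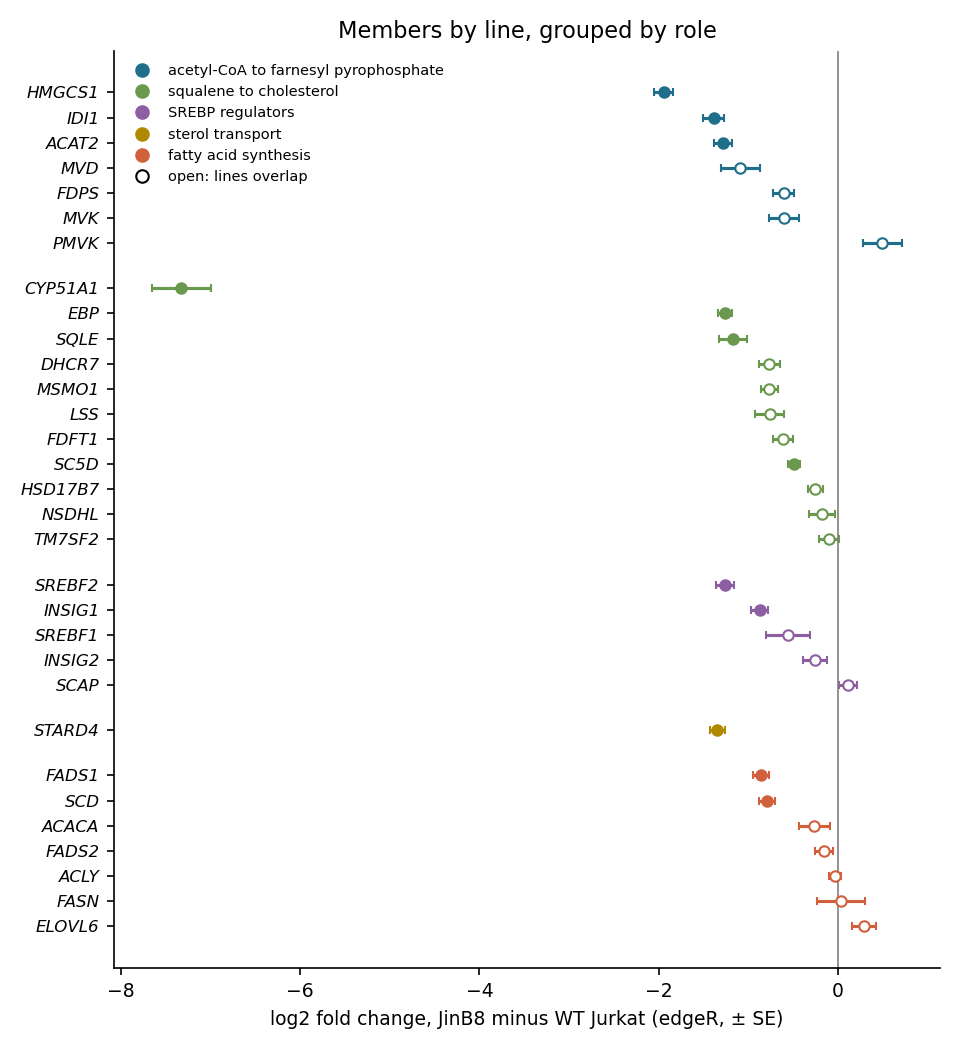
Fitted log2 fold change, JinB8 minus WT Jurkat, with its SE for the 31 members grouped by role; filled points are members whose 10 JinB8 and 10 WT libraries do not overlap. CYP51A1 stands at -7.33 and the other members lie between -1.94 and 0.50.

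Levels of different genes can be compared after division by transcript length. In WT the highest were INSIG1 (180 ± 22.2 CPM per kb), HMGCS1 (171 ± 29.5) and FDPS (166 ± 24.4), and the differences among these 3 were smaller than their SDs. In JinB8 FDPS (111 ± 25.5), INSIG1 (97.7 ± 12.7) and FDFT1 (91.6 ± 15.6) came first, with neighbours in this order differing by less than the larger of their SDs, and HMGCS1 stood at 46.2 ± 4.70. CYP51A1 was at 19.5 ± 5.04 in WT, beside ACACA (19.6 ± 5.30) and SREBF2 (15.4 ± 2.94), and at 0.156 ± 0.0943 in JinB8, below every other member. ELOVL6 was the lowest member in WT, at 1.21 ± 0.368.

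Shares of a gene's counts by isoform were compared for 30 members, leaving out CYP51A1, whose JinB8 totals are too low. Of these, 28 had more than 1 isoform, and the leading isoform was the same in both lines for all of the 28 but MVK, where ENST00000539575 led in WT with 28.5 ± 9.64% and ENST00000540353 in JinB8 with 30.5 ± 3.79%. The widest shift of means was in NSDHL, where ENST00000370274 took 80.9 ± 6.73% in WT and 68.6 ± 9.12% in JinB8 (n = 10 each). Its ranges overlapped, and of 351 isoforms 0 had shares without overlap between the lines. No share over the isoforms of all genes was taken, so nothing is read from this count.

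The time course was not used to choose the members and was tested with edgeR's quasi-likelihood test, with Benjamini-Hochberg adjustment over the 16327 genes and an adjusted p under 0.05 taken as a call. Libraries of the 3 treatments at a time point serve as its replicates, after a term for each treatment. Each condition was sequenced 1 time, so the p-values measure the spread between these libraries. In WT cells, 12 of the 31 members were higher at 6 h than at 1 h (38.7%, against 25.7% of all tested genes) and 6 were lower (19.4%, against 24.8%). In JinB8 cells, 16 were higher (51.6%, against 26% of all) and 2 lower (6.45%, against 27%). The median log2 change of the members was 0.12 in WT and 0.30 in JinB8, and that of all tested genes was 0.00 in both.

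Members that rose in both lines included PMVK, ACACA, MVK and LSS. PMVK went in WT from 6.57, 7.79, 7.19 and 8.74 CPM at 1 h (UT, CD3+CD28, CD3+CD28+TSP1, TSP1) to 17.2, 18.6 and 17.5 at 6 h (the 3 treatments in that order). In JinB8 it went from 12.1, 12.5, 12.7 and 10.6 to 25.2, 25.4 and 24.6. The log2 changes were 1.17 (SE 0.12, adjusted p = 2.27e-06 by edgeR) and 1.07 (SE 0.11, adjusted p = 3.08e-06), and no 6 h library overlapped the 1 h libraries. ACACA went in WT from 93.7, 82.9, 79.2 and 82.7 CPM to 147, 134 and 148, and in JinB8 from 66.3, 69.1, 65.2 and 75.0 to 119, 121 and 118. Its log2 changes were 0.81 (SE 0.09) and 0.77 (SE 0.09). SREBF1 rose by 0.75 (SE 0.16) and 0.96 (SE 0.17) on the log2 scale, NSDHL by 0.69 (SE 0.12) and 0.63 (SE 0.12), and SCAP by 0.35 (SE 0.07) and 0.61 (SE 0.07). TM7SF2 also rose in both lines, as did FADS2 and FDPS. The WT call of FDPS (log2 change 0.24, adjusted p = 0.0365 by edgeR) is lost in 7 of 26 alternatives, with 0.15 as its smallest change, and that of FADS2 in 1 of 26. Such counts include fits that leave out a library of the other line or an untreated library. These fits bear on a call within a line only indirectly, through filtering, scaling, the shared spread and the adjustment. The counts therefore make calls look more stable than fits without a library of the same line do.

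INSIG2, the second INSIG retention protein, fell in both lines. It went in WT from 32.4, 28.3, 25.8 and 33.8 CPM at 1 h to 17.8, 17.9 and 17.7 at 6 h, and in JinB8 from 21.8, 22.0, 22.5 and 22.2 to 15.7, 16.2 and 15.8. Its log2 changes were -0.71 (SE 0.11, adjusted p = 0.000143 by edgeR) and -0.48 (SE 0.12, adjusted p = 0.00302). CYP51A1 fell in WT, by 0.71 on the log2 scale (SE 0.19, adjusted p = 0.00611 by edgeR), where it went from 54.1, 63.6, 61.9 and 61.6 CPM to 37.3, 40.6 and 36.4. In JinB8 it also passed the threshold (-1.79, SE 0.71, adjusted p = 0.0475 by edgeR) and makes up 1 of the 2 members counted as lower there, but nothing is read from this. The value rests on counts of 5.19 to 18 per library at 1 h and 1.91 to 5.75 at 6 h, close to the detection limit, and the call was lost in 17 of 25 alternatives. In WT it was lost with DESeq2 (adjusted p = 0.234), 1 of 25 alternatives.

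FADS1, IDI1, SC5D and SREBF2 fell at 6 h in WT and were not called in JinB8. FADS1 went in WT from 206, 219, 204 and 207 CPM to 151, 141 and 138 (log2 change -0.55, SE 0.07, adjusted p = 2.23e-05 by edgeR), with no overlap. In JinB8 it was at 101, 106, 106 and 109 CPM at 1 h and 100, 103 and 99.7 at 6 h (log2 change -0.08). ACAT2 and STARD4 rose in WT, by 0.31 (SE 0.10) and 0.29 (SE 0.09) on the log2 scale, and were not called in JinB8. These WT calls are lost in 5 (ACAT2) and 4 (STARD4) of 26 alternatives, all of them fits that leave out 1 WT library. Without the JinB8 library that stands apart, ACAT2 was called higher (adjusted p = 0.00383 by edgeR) and STARD4 lower (adjusted p = 0.0195) in JinB8. ELOVL6 was then also higher (adjusted p = 0.0382 by edgeR) and HSD17B7 lower (adjusted p = 0.0374). This gives 18 members higher and 4 lower in JinB8, in place of 16 and 2. Over the alternatives 3525 to 4728 of all tested genes were higher and 3612 to 4925 lower, so nothing is read from the move. The 6 members called higher in JinB8 and not in WT were SQLE, FASN, MVD, DHCR7, MSMO1 and HMGCS1. The calls of HMGCS1 and MSMO1 are lost in 4 and 3 of 26 alternatives, each a fit without 1 JinB8 library. Calls in 1 line only do not show a difference between the lines, which is tested next.

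**Figure D4:**
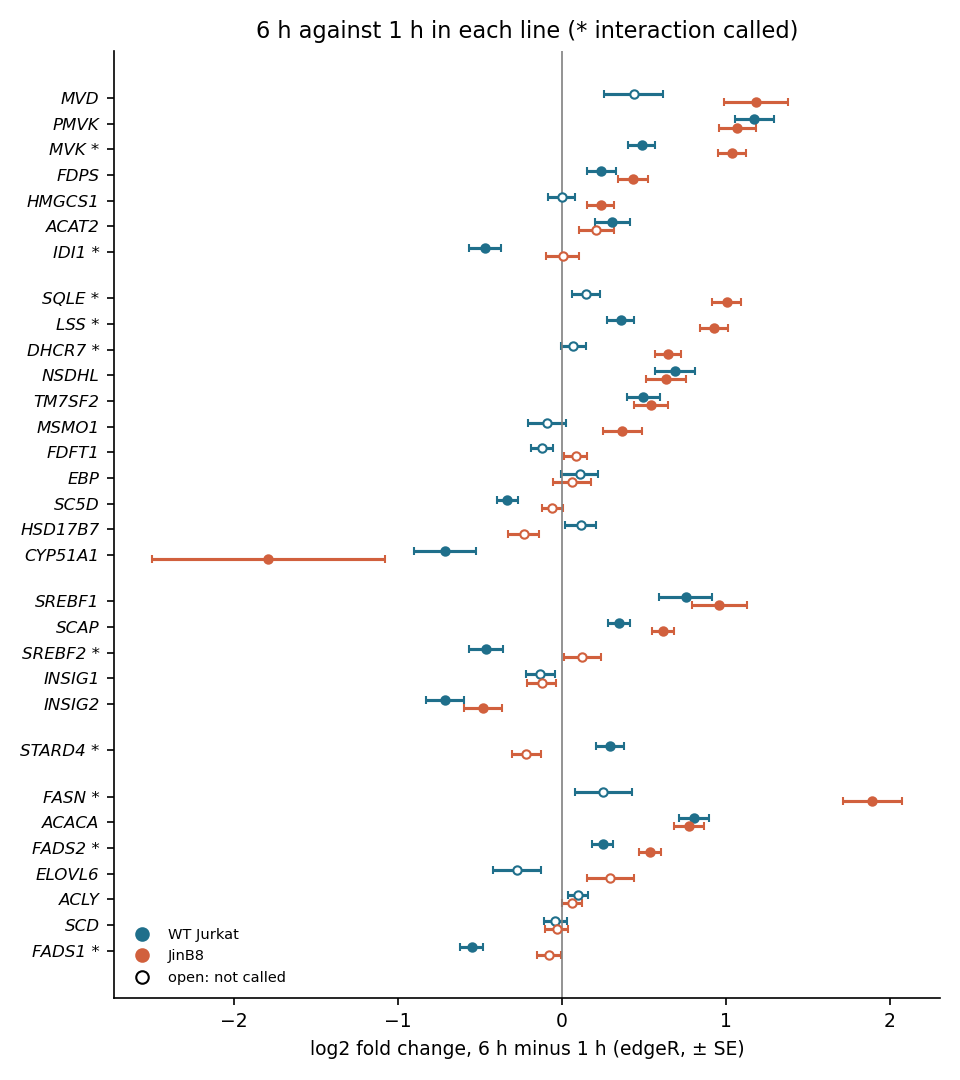
Log2 fold change from 1 h to 6 h with its SE in WT Jurkat and JinB8 for the 31 members grouped by role; filled points are called at an adjusted p under 0.05 and a star marks members whose change differed between the lines by the interaction test. FASN shows the widest gap, with 1.89 in JinB8 and 0.25 in WT.

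The change from 1 h to 6 h differed between the lines for 10 members by the interaction test of the same model. It was more positive in JinB8 for 9 (29%, against 6.46% of all tested genes) and more negative for 1 (3.23%, against 10.2%). The 9 were FASN, SQLE, SREBF2, DHCR7, LSS, MVK, IDI1, FADS1 and FADS2, and the 1 was STARD4. FASN had 38.8, 26.1, 32.1 and 22.2 CPM in JinB8 at 1 h (UT, CD3+CD28, CD3+CD28+TSP1, TSP1) and 96.3, 111 and 88.2 at 6 h. In WT it had 47.1, 45.4, 88.3 and 65.3 at 1 h and 74.5, 81.8 and 76.9 at 6 h. JinB8 libraries were below all WT libraries at 1 h and above all of them at 6 h. The log2 changes were 1.89 (SE 0.18) in JinB8 and 0.25 in WT, and their difference was 1.64 (SE 0.25, adjusted p = 0.000687 by edgeR). It was called in all 27 alternatives.

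SQLE had 58.8, 60.02, 56.6 and 57.3 CPM in JinB8 at 1 h and 116, 117 and 116 at 6 h, and in WT 168, 176, 185 and 172 at 1 h and 196, 212 and 184 at 6 h. Its JinB8 level at 6 h was still below every WT library. The difference of the log2 changes was 0.86 (SE 0.12, adjusted p = 0.000361 by edgeR), and the log2 gap between matched libraries was -1.58 ± 0.08 at 1 h (SD, n = 4) and -0.76 ± 0.09 at 6 h (n = 3). LSS had 46.2, 37.3, 44.5 and 34.0 CPM in JinB8 at 1 h and 76.6, 72.6 and 70.1 at 6 h, and in WT 75.7, 81.3, 94.8 and 88.6 at 1 h and 122, 106 and 111 at 6 h. The difference of its log2 changes was 0.57 (SE 0.12, adjusted p = 0.00496 by edgeR). DHCR7 had 33.0, 28.8, 30.9 and 30.1 CPM in JinB8 at 1 h and 46.0, 50.2 and 44.5 at 6 h, and in WT 53.2, 61.4, 66.1 and 58.9 at 1 h and 68.2, 66.6 and 60.9 at 6 h. Its difference was 0.58 (SE 0.11, adjusted p = 0.00341 by edgeR). For MVK, 11.7, 10.3, 10.0 and 11.4 CPM in JinB8 at 1 h became 23.3, 20.7 and 21.1 at 6 h, a log2 change of 1.04 (SE 0.09). In WT 17.7, 19.5, 20.9 and 21.5 became 28.4, 29.2 and 29.2, a change of 0.49 (SE 0.08), and the difference was 0.55 (SE 0.12, adjusted p = 0.0067 by edgeR). For these 4 genes JinB8 stayed below WT in every matched pair while the gap was narrower at 6 h than at 1 h.

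For FADS1 the difference of the log2 changes was 0.47 (SE 0.10), with a gap between matched libraries of -0.98 ± 0.06 at 1 h and -0.50 ± 0.07 at 6 h. SREBF2 and IDI1 had differences of 0.59 (SE 0.15, adjusted p = 0.02 by edgeR) and 0.47 (SE 0.14, adjusted p = 0.0319), and both had fallen in WT. Both calls are lost when matched libraries are taken as pairs (adjusted p = 0.0549 and 0.11 with the replicate block), as is that of FADS2 (0.29, SE 0.09, adjusted p = 0.0492 against 0.192). Over all 27 alternatives the call is lost in 19 for FADS2, in 9 for IDI1 and in 7 for SREBF2. STARD4 went the other way. Its WT libraries were at 184, 187, 187 and 194 CPM at 1 h and 230, 241 and 225 at 6 h, and its JinB8 libraries at 80.8, 86.4, 76.9 and 85.4 at 1 h and 74.5, 65.9 and 73.8 at 6 h. The difference was -0.51 (SE 0.12, adjusted p = 0.0132 by edgeR). Leaving out the CD3+CD28+TSP1 library of WT at 1 h (adjusted p = 0.0635 by edgeR) or the TSP1 library of JinB8 at 6 h (adjusted p = 0.0639) ends this call. Members whose line gap did not move detectably over time include INSIG1, SCD and EBP, with interactions of 0.01 (SE 0.12), 0.01 (SE 0.10) and -0.05 (SE 0.16) on the log2 scale. Without the JinB8 library with CD3+CD28+TSP1 at 3 h, 15 members were called more positive, which include all 9 above and also MVD, SC5D, ELOVL6, MSMO1, SCAP and FDFT1. The count of all tested genes that were more positive ran from 561 to 1744 over the alternatives, against 1055 in the model used here. Nothing is therefore read from the rise to 15.

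**Figure D5:**
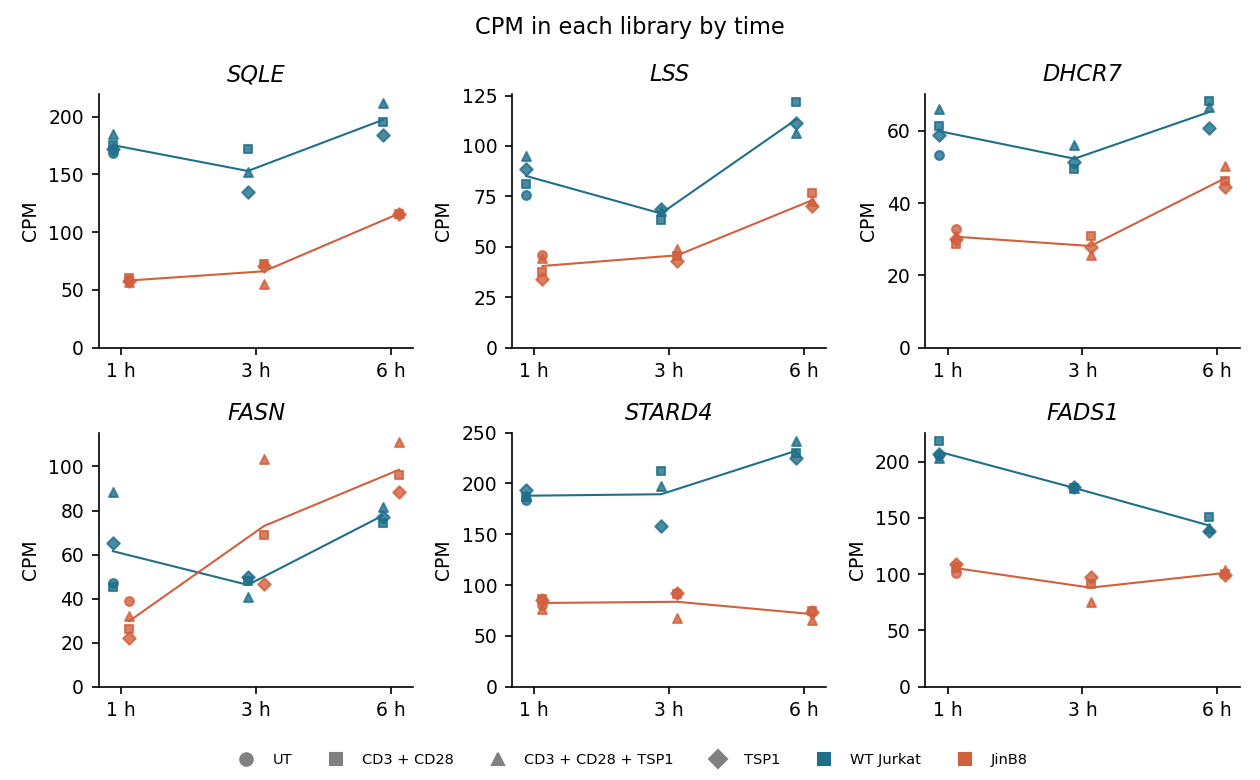
CPM of SQLE, LSS, DHCR7, FASN, STARD4 and FADS1 in each library at 1, 3 and 6 h; symbols give the treatment, colours the line, and lines join the means over the 4 libraries at 1 h and the 3 at 3 and 6 h. In JinB8 the SQLE mean goes from 58.2 to 116 CPM and the FASN mean from 29.8 to 98.5, while the STARD4 mean goes from 82.4 to 71.4.

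The change from 1 h to 3 h was tested in the same model, and shares the 1 h libraries with the 6 h comparison. In WT, 2 members were higher than at 1 h (6.45%, against 16.9% of all tested genes) and 15 were lower (48.4%, against 17.4%). The members that fell were HMGCS1, MVD, IDI1, FDFT1, LSS, DHCR7, SREBF1, SREBF2, INSIG1, INSIG2, ACLY, FASN, SCD, ELOVL6 and FADS1, from all roles but sterol transport, and PMVK and NSDHL rose. IDI1 fell from 238, 337, 307 and 257 CPM to 213, 199 and 155 (log2 change -0.67, SE 0.10), and FDFT1 from 287, 330, 301 and 302 to 205, 213 and 199 (-0.60, SE 0.07). Without the WT library with TSP1 at 1 h, 9 members were called lower. The count of all tested genes called lower ran from 2168 to 3612 over the alternatives, against 2838 in the model used here. Nothing is therefore read from the drop to 9. The WT call of FASN (log2 change -0.49, adjusted p = 0.047 by edgeR) is lost in 14 of 26 alternatives and its change is -0.23 without the CD3+CD28+TSP1 library of 1 h. Calls are also lost for DHCR7 in 7 of 26, for SREBF2 in 6, for MVD and FADS1 in 4 each, for INSIG2 in 2 and for ACLY in 1. That of NSDHL, which rose, is lost in 3. In JinB8, 6 members were higher (19.4%, against 18% of all) and 8 lower (25.8%, against 20.1%). The 6 become 3 with DESeq2, which loses MVK, SCAP and TM7SF2, 2 with no filter and 1 without treatment terms. They also become 1 without the JinB8 library with CD3+CD28 at 1 h. The 8 become 4 with limma voom. Without the library that stands apart 8 members were higher and 5 lower. Over the alternatives the counts of all tested genes ran from 2116 to 3447 higher and from 2507 to 3332 lower. The model used here gave 2934 and 3274, and nothing is read from the move. The 5 called lower with and without that library were FDFT1 (-0.48, SE 0.07), INSIG1 (-0.45, SE 0.09), HSD17B7 (-0.42, SE 0.10), SCD (-0.41, SE 0.07) and FADS1 (-0.28, SE 0.07). The FADS1 change is -0.17 without that library, and its call is lost with limma voom (adjusted p = 0.0533). ACAT2, IDI1 and FDPS were lost without it, with log2 changes of -0.10, -0.15 and -0.16 in place of -0.31, -0.29 and -0.30.

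The change from 1 h to 3 h was more positive in JinB8 for 4 members (12.9%, against 2.02% of all tested genes) and more negative for 0 (against 2.25%). FASN in JinB8 had 69.0, 103 and 46.5 CPM at 3 h (CD3+CD28, CD3+CD28+TSP1, TSP1) against 38.8 or less at 1 h, and in WT 48.1, 40.5 and 50.003. The difference of its log2 changes was 1.89 (SE 0.25, adjusted p = 0.00156 by edgeR), and 1.72 (adjusted p = 0.00127 by edgeR) without the library of 103 CPM. MVD (1.28, SE 0.27), SREBF1 (1.12, SE 0.24) and LSS (0.66, SE 0.12) were the others. Of these, MVD and LSS had fallen in WT. Their calls as higher in JinB8 (0.58, SE 0.20, and 0.25, SE 0.08) are lost in 6 of 26 alternatives each. SREBF1 had fallen in WT, from 31.6, 27.2, 43.9 and 41.0 CPM to 19.3, 15.8 and 25.3, and was at 20.8, 30.5 and 18.4 in JinB8 at 3 h. With the replicate block 2 of the 4 remained, since SREBF1 (adjusted p = 0.102) and LSS (adjusted p = 0.0647) were lost. Without the library that stands apart the 4 remained and HMGCS1, IDI1, MVK and SQLE were added. The count of all tested genes that were more positive ran from 96 to 959 over the alternatives, against 330 in the model used here. Nothing is therefore read from this gain. MVD and SREBF1 are both lost, which leaves 2 members, when any of 4 libraries is left out: the WT libraries with CD3+CD28+TSP1 at 1 h and 3 h and with TSP1 at 1 h, and the JinB8 library with CD3+CD28 at 1 h. Beside the count of 0 for more negative changes, 12 of the 31 members had an unadjusted p under 0.05 in either direction (38.7%, against 21.6% of all tested genes), and DESeq2 and limma voom also called 0.

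Neither activation in the presence of TSP1 nor TSP1 on activated cells moved a member past the threshold with the low-count filter in place. Activation in the presence of TSP1 (CD3+CD28+TSP1 against TSP1) called 0 of 31 members in WT, where 0.0919% of all tested genes were higher and 0% lower, and 0 in JinB8, where 0% were called in either direction. TSP1 on activated cells (CD3+CD28+TSP1 against CD3+CD28) called 0 members and 0% of genes in both lines. At an unadjusted p under 0.05 there were 2 members in WT (6.45%, against 5% of all tested genes) and 6 in JinB8 (19.4%, against 16.1%) for activation. For TSP1 there were 0 in WT (against 2.24%) and 3 in JinB8 (9.68%, against 10.8%), and neither DESeq2 nor limma voom called a member. The member with the smallest p in JinB8 was FASN for activation, with a log2 difference of 0.67 (SE 0.18, adjusted p = 0.283 by edgeR). With no low-count filter, 401 genes were called higher and 137 lower for JinB8 activation, and 333 and 68 for TSP1, against 0 with it. Of the members FASN alone was then called, in both JinB8 comparisons. Its log2 differences were 0.66 (adjusted p = 1.44e-08 by edgeR) and 0.36 (adjusted p = 0.0273). Without the library that stands apart its values were 0.49 (adjusted p = 0.527) and 0.18 (adjusted p = 1). HMGCS1 and IDI1 had log2 differences of 0.18 and 0.23 in WT for activation, with adjusted p of 0.979 and 0.923.

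Untreated cells were sequenced at 1 h only, with 1 library per line, so they are set beside the treated 1 h libraries without a test. In WT the untreated value lay below all 3 treated libraries for 17 members, within them for 11 and above them for 3, while 27.3% of all tested genes lay below and 31% above. In JinB8 it lay below for 10, within for 14 and above for 7, against 31% of all tested genes below and 25.3% above. INSIG1, for example, was at 454 CPM untreated and 500.3 to 572 treated in WT, and at 261 untreated and 292 to 303 treated in JinB8. SCD was at 505 untreated and 460 to 478 treated in WT, but at 254 untreated and 272 to 285 treated in JinB8.

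Other genes of these pathways were listed too, 45 in all, of which 44 were tested. They are the proteases and degradation factors of the SREBP system, partners of the sterol enzymes, sterol export and storage genes, users of isoprenoids and genes of fatty acid supply and elongation. Between the lines, 3 of the 44 were lower without overlap in JinB8 and 1 was higher, shares near or below the 5.48% and 6.01% of all tested genes. TMEM97, a sterol-binding membrane protein, was at 96.8 CPM in WT and 58.8 in JinB8, PGRMC1, a heme protein that binds sterol P450 enzymes, at 56.8 and 36.3, and ACSL4, an acyl-CoA synthetase, at 107 and 69.8. NR1H3, the oxysterol receptor LXR alpha, was at 4.85 and 8.81 CPM. From 1 h to 6 h, 17 of the 44 rose (38.6%, against 25.7% of all tested genes) and 11 fell (25%, against 24.8%) in WT. In JinB8 19 rose (43.2%, against 26%) and 11 fell (25%, against 27%). The changes differed between the lines for 10, with 3 more positive (6.82%, against 6.46% of all) and 7 more negative in JinB8 (15.9%, against 10.2%). ABCA1 and ABCG1, the sterol exporters that LXR induces, were among the 7, with differences of -1.52 (SE 0.38, adjusted p = 0.0167 by edgeR) and -0.74 (SE 0.15, adjusted p = 0.0039). ABCA1 was low, at 1.11 to 4.14 CPM in WT and 0.808 to 2.61 in JinB8. SOAT1, which esterifies cholesterol for storage, differed by -0.36 (SE 0.09) and LPIN1, a phosphatidate phosphatase, by -0.94 (SE 0.11). TMEM97 was among the 3 with a more positive change, with 0.68 (SE 0.12, adjusted p = 0.00201 by edgeR). Of the 6 listed genes of LXR and of sterol export and storage, 3 were more negative and 1 more positive. The median difference of these 6 was -0.04, so no common shift of this set is read from the genes named.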

How the data were processed

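RNA was measured in 20 libraries, 10 per line. Per the labels and the methods of the study, reads were trimmed with Cutadapt 1.18, aligned to hg38 with STAR 2.4.2a and counted with RSEM 1.3.3 on GENCODE 36. The deposited values are expected counts per gene and isoform, not divided by depth or length. The authors' later filtering, quantile normalization and batch removal were not repeated. Each table also holds 2 columns of no sample, which were not used. The members and the other lists were chosen with earlier results of these data known.

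Counts were rounded and analysed in R 4.3.3 with edgeR 4.0.16 (filterByExpr by line, minimum count 10, minimum total 15; TMM; quasi-likelihood tests; Benjamini-Hochberg threshold 0.05). The lines were compared in a model with a line term only. All other contrasts come from a single model, in which every treatment has its own level within a line and each line has its own 3 h and 6 h terms. Matched gaps used log2 CPM with a pseudocount of 0.5. Alternatives were DESeq2 1.42.0, limma voom 3.58.1 with quantile normalization, other scaling, filters and models, and leaving out each library. The scripts were tested on simulated data. Positions are from GENCODE 44 and promoters from RefSeq. All members are accounted for by role. Values by library, or the lowest, median and highest of a line, are given for CYP51A1, for the 5 other members with the largest difference between the lines, and for up to 4 members with the smallest p in each 6 h comparison. Those of SREBF2, the next member by the difference between the lines, are given as well.
Values of IDI1, FDFT1 and SREBF1 at 3 h were added after they were seen.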

Additional observations from a re-analysis of the deposited data

Results flagged for a closer look

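In 5 of 62 sets of 10 libraries (31 members in 2 lines), 1 library lay far from the others by Dixon's test. For independent draws from a single normal distribution, chance gives such a gap in about 1 of 20 sets. The sets here mix time points and treatments, and all members share the same libraries. That rate therefore does not apply to the 5 gaps. The JinB8 library with CD3+CD28+TSP1 at 3 h gave 4 of them: ACAT2 at 36.4 CPM (the next lowest was 54.7), IDI1 at 64.1 (85.1), EBP at 20.1 (26.1) and SREBF2 at 38.5 (the next highest was 28.9). The fifth was MSMO1 in the WT library with TSP1 at 3 h, at 66.8 CPM (the next lowest was 85.1).

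The change from 1 h to 6 h differed between the lines by the interaction test (edgeR) for FASN (1.64), SQLE (0.86), SREBF2 (0.59), DHCR7 (0.58), LSS (0.57), MVK (0.55), IDI1 (0.47), FADS1 (0.47), FADS2 (0.29) and STARD4 (-0.51), as the log2 change in JinB8 minus that in WT. From 1 h to 3 h it differed for FASN (1.89), MVD (1.28), SREBF1 (1.12) and LSS (0.66).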

How the results depend on the processing

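No member called in a time or interaction comparison changed sign under any alternative, and none of the counts of members called higher or lower at 6 h against 1 h in WT moved by over 1.5 times. In JinB8, members called higher at 3 h numbered 3 with DESeq2, 2 with no filter and 1 without treatment terms, in place of 6, and members called lower 4 with limma voom in place of 8. Members called lower at 6 h in JinB8 numbered 1 in place of 2 with upper-quartile factors, with 1 CPM required in every library and without treatment terms. With no filter 1 member (FASN) was called higher in each of the JinB8 treatment comparisons, in place of 0. Of all genes 401 were then called higher for activation and 333 for TSP1, also in place of 0. At 1, 3 and 6 h alone, 23, 22 and 24 members were lower without overlap in JinB8 in place of 12, and 1, 1 and 4 were higher in place of 0. These sets hold 3 or 4 libraries a line, and of all tested genes 21.8%, 23.7% and 32% were then lower and 23.6%, 24% and 33% higher without overlap. Apart from the smaller sets of libraries, the cause was not tested.

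Leaving out each library in turn gave 1 to 8 members higher and 5 to 9 lower at 3 h in JinB8, 1 to 4 lower at 6 h in JinB8, 1 to 2 higher and 9 to 17 lower at 3 h in WT, 6 to 15 and 0 to 2 in the 6 h interaction and 2 to 8 in the 3 h interaction. The lowest count of members higher at 3 h in JinB8 (1) came without either JinB8 library with CD3+CD28, at 1 h or at 3 h, and 2 were found without either JinB8 library with TSP1 at these times. The 5 members lower at 3 h in JinB8 came without either JinB8 library with CD3+CD28+TSP1, at 1 h or 3 h. Members lower at 6 h in JinB8 numbered 4 without the JinB8 library with CD3+CD28+TSP1 at 3 h, and 1 without any of 12 other libraries, which ends the call of CYP51A1. In the 6 h interaction, 2 members were more negative without the JinB8 library with TSP1 at 1 h. In WT, 1 member was higher at 3 h without the CD3+CD28+TSP1 library of 1 h or 3 h or the TSP1 library of 1 h.

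The replicate block, which takes the 10 pairs of libraries with the same treatment and time as blocks, gave 2 members in the 3 h interaction in place of 4. The pairs share only the condition: their deviations correlated by -0.33 to 0.18, with 2 of 10 above 0.1. Within a line there are no such pairs. Depth limits CYP51A1 in JinB8, where 1 count is a large part of the value. Counts over all genes also moved in the interactions, from 561 to 1744 higher and 819 to 2529 lower at 6 h, and from 96 to 959 and 68 to 498 at 3 h. For WT activation in the presence of TSP1 they ran from 0 to 158 higher and 0 to 43 lower, for JinB8 activation from 0 to 401 and 0 to 137, and for TSP1 on activated cells from 0 to 43 and 0 to 41 in WT and 0 to 333 and 0 to 68 in JinB8.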
